A study of Mus musculus with 2 samples.

Results

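Bone morphogenetic proteins (BMPs) and the genes that restrain, receive and record their signal were followed here as 9 genes of the 27998 measured. They were 4 ligands (Bmp2, Bmp4, Bmp5 and Bmp6), 2 secreted antagonists (Grem1 and Chrdl1), a type I receptor (Bmpr1a), a type II receptor (Bmpr2) and the target gene Id1. They were taken by symbol, and all 9 symbols were found in both libraries. BMP ligands are secreted dimers of the TGF-beta superfamily. They join type I and type II receptor kinases, which phosphorylate SMAD1, SMAD5 and SMAD8, and these enter the nucleus with SMAD4 and turn on genes such as the Id family. Gremlin and the chordin-like proteins bind the ligands outside the cell and keep them from their receptors. In fibroblasts of the gut and other organs, ligand-producing and antagonist-producing cells are known to occupy different positions in the tissue.

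The study used droplet single-cell RNA-seq (10x Genomics, 3′ chemistry, with unique molecular identifiers, UMIs) on mouse pancreas. The tumour library held GFP+ PDPN+ cells sorted from orthotopic tumours 21 days after FC1245 pancreatic cancer cells were implanted into Rosa26-mTmG;Fabp4-Cre mice of 8 weeks. The normal library held GFP+ cells from pancreata of Rosa26-mTmG;Fabp4-Cre mice of 6 to 9 weeks with no tumour. Both groups carry the same reporter, which turns from membrane Tomato to membrane GFP in any cell whose lineage has expressed Cre from the Fabp4 promoter, so GFP marks a history and not a cell type. PDPN was used in the tumour gate only, and tumours were digested with collagenase IV, dispase, DNase and trypsin, whereas normal pancreata were digested with pronase, collagenase P and DNase. There was 1 library per group, and the number of mice in each is not given in the sources used here. The mix of sexes differed too. Of the tumour cells named fibroblast-like below, 2113 had Xist and no Y-linked UMI and 0 had Y-linked UMIs alone, against 486 and 764 of the normal ones. Library, gate, digestion, sex mix and tumour cannot be told apart. No test between groups was possible, and every interval below covers counting error only, not the spread between mice.

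After filtering, 2520 tumour cells (median 10131 UMIs) and 4520 normal cells (median 7066 UMIs) were kept, and 2 of the kept barcodes (4 of all) occurred in both libraries. Cells were clustered together and named from marker lists. Fibroblast-like cells made up 2224 cells (88.3%) of the tumour library and 1480 cells (32.7%) of the normal library, so most normal GFP+ cells were of other classes. The tumour library also held 103 lymphatic endothelial-like, 53 macrophage-like or monocyte-like and 42 ductal or tumour epithelial-like cells. The normal library also held 1414 macrophage-like or monocyte-like, 1071 endothelial-like and 147 pericyte-like or smooth muscle-like cells and 281 cells of an unnamed cluster led by Sema3g. Levels are UMIs per 1000000 UMIs summed over the cells of a group (CPM), with 95% Poisson intervals in parentheses. Shares of cells with a UMI were counted after each cell was thinned to 5000 UMIs, which left out shallower cells and kept 1858 tumour and 1337 normal fibroblast-like cells. A summed level alone cannot tell fewer expressing cells from less RNA per cell.

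The 9 genes lie on chromosomes 1, 2, 9, 13, 14 and X of GRCm38, and 3 of them, Bmp2, Grem1 and Id1, lie on chromosome 2. Bmp4 is at chr14:46383520-46390669 on the minus strand, Grem1 at chr2:113746164-113758646 on the minus strand, and Bmp5 at chr9:75775364-75900310 on the plus strand. Bmp2 lies at chr2:133552159-133562885 (plus), Bmp6 at chr13:38345107-38500302 (plus), Chrdl1 at chrX:143285674-143394262 (minus), Bmpr1a at chr14:34410734-34503341 (minus), Bmpr2 at chr1:59763400-59879014 (plus) and Id1 at chr2:152736251-152737410 (plus). RefSeq promoters (GRCm38.p6, 250 bases before to 50 bases after the gene start) were matched for 6 of the 9 genes. Those of Bmp4, Bmp5 and Grem1 are shown because, among fibroblast-like clusters, Bmp4 and Bmp5 were both highest in the same normal cluster and Grem1 in a tumour cluster that was nearly without Bmp4. Each reads 5′ to 3′ on the gene's strand, and capitals mark GGCGCC, letters known to be bound by SMAD1 and SMAD5, and GTCT or its reverse complement AGAC, the letters of the SMAD-binding element.
Bmp4 (chr14:46390620-46390919, minus strand): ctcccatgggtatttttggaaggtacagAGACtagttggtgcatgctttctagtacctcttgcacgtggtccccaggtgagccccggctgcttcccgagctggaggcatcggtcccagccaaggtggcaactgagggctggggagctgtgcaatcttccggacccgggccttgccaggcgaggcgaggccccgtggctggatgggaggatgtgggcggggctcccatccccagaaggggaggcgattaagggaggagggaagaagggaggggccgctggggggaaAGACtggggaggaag
Bmp5 (chr9:75775115-75775414, plus strand): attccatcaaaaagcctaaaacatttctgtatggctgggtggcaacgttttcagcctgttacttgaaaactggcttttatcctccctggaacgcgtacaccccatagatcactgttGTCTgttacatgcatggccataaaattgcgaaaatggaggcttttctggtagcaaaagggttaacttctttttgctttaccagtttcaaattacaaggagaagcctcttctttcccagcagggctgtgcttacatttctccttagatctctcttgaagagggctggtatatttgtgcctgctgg
Grem1 (chr2:113758599-113758898, minus strand): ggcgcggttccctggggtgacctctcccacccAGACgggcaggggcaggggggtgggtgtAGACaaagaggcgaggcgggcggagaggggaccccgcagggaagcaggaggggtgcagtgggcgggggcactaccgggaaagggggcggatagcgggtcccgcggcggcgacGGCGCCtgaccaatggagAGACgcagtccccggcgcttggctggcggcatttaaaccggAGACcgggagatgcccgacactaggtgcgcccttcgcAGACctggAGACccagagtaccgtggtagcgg
GGCGCC, which is its own reverse complement, occurred 1 time in the Grem1 window and 0 times in those of Bmp4 and Bmp5, and 11.9% of the 32851 RefSeq promoters of this length hold it. GTCT, counted on both strands, occurred 6 times in the Grem1 window, 2 times in that of Bmp4 and 1 time in that of Bmp5. Of all promoters 88.0% hold at least 1 such match and 3.52% hold as many as Grem1. The motifs did not overlap in these windows, and a match is a run of letters, not a measured site.

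Each of the 9 genes had its own distribution over cell classes. In the tumour library, where fibroblast-like cells held 89.9% of all UMIs, they held 100% of the 27 Bmp5 and 172 Chrdl1 UMIs, 97.1% of the Bmpr1a UMIs and 75.7% of the 419 Grem1 UMIs. In the normal library 91.4% of the 1764 Bmp4 UMIs and 91.6% of the 119 Chrdl1 UMIs were in fibroblast-like cells, which held 41.1% of all UMIs. By contrast 90.2% of the 4671 normal Bmp2 UMIs were in macrophage-like or monocyte-like cells, 52.9% of the 104 normal Bmp5 UMIs were in pericyte-like or smooth muscle-like cells, and 72.2% of the 6305 normal Id1 UMIs were in endothelial-like cells. A further 930 Id1 UMIs were in the Sema3g cluster, whose top genes also hold Gja4, Sox17 and Ptprb and which stayed unnamed for its low UMIs. B-like cells, a class taken here to read background RNA, had 0 UMIs of the 4 ligands and both antagonists among 52 tumour cells (median 2615.5 UMIs) and among 70 normal cells (median 9737 UMIs). A count of 0 allows up to 5.77% of the tumour and 4.29% of the normal B-like cells to carry a UMI of each (3 counts over the number of cells). In CPM it allows up to 17.6 in tumour and 4.499 in normal B-like cells. The tumour limit is above the tumour fibroblast-like levels of Bmp5, Bmp6, Grem1 and Chrdl1. The normal limit is above the normal fibroblast-like levels of Bmp5, Bmp6 and Grem1. In these cases the limits do not bound background. Among normal B-like cells, without thinning, 1.43% had a Bmpr1a UMI, 8.57% a Bmpr2 UMI and 2.86% an Id1 UMI.

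**Figure D1:**
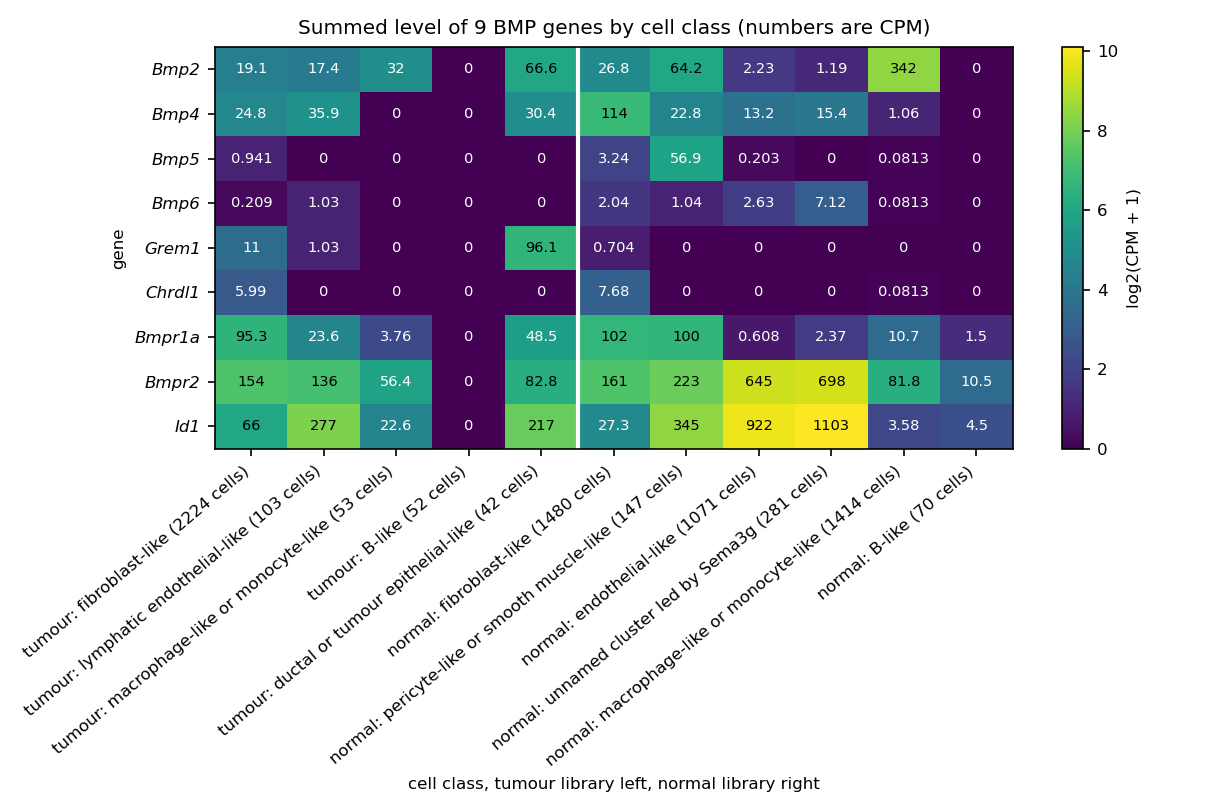
Heat map of the 9 genes (rows) in 5 tumour classes (left of the white line) and 6 normal classes (right), coloured by log2(CPM + 1) with the CPM printed in each cell. Bmp2 stands out in normal macrophage-like or monocyte-like cells at 342 CPM, Grem1 in tumour epithelial-like cells at 96.1 CPM, and Bmpr2 and Id1 in the normal Sema3g cluster, at 698 and 1103 CPM, and in endothelial-like cells, at 645 and 922 CPM.

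Between the fibroblast-like sums of both libraries, Id1 was higher and Bmp4 lower in the tumour, and neither receptor was 2-fold apart. A gene was called when its CPM ratio was at least 2-fold, its counting interval excluded 1 and it reached 20 CPM in either sum. By this rule 1 of the 5 members that reached 20 CPM was higher in the tumour (Id1), against a background of 7.66% of 6811 genes, and 1 was lower (Bmp4), against a background of 11.3%. With 5 members measured, these counts say nothing particular about the group. Bmp2, Bmpr1a and Bmpr2 were measured and not called, and Bmp5, Bmp6, Grem1 and Chrdl1 stayed under 20 CPM in both sums. The median log2 fold was -0.10 over the 5 measured members and -0.25 over all 6811 genes. Over all genes 522 were higher and 768 lower. With TMM scaling these counts were 803 and 371, and with median-ratio scaling 655 and 500, since those scalings shift every log2 fold up by 0.32 and 0.18.

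Bmp4, a ligand that many mesenchymal cells secrete, was at 24.8 CPM (23.0 to 26.7) in tumour fibroblast-like cells, against 114 CPM (108 to 119) in normal ones. That is 4.58-fold lower in the tumour (4.19 to 5.01). A Bmp4 UMI was found in 13.8% of thinned tumour fibroblast-like cells and in 38.2% of normal ones (21.0% and 51.5% without thinning). The level varied more widely among tumour clusters than between the libraries. The tumour clusters, named by their leading gene, had 81.3 CPM (Apod cluster, 562 cells), 30.7 CPM (Thbs4 cluster, 729 cells), 11.7 CPM (Hp cluster, 520 cells) and 2.53 CPM (Tnc cluster, 385 cells). The normal clusters had 167 CPM (Abca8a cluster, 1064 cells), 31.3 CPM (Sema3c cluster, 373 cells) and 3.84 CPM (Hp cluster, 39 cells). The tumour Apod cluster was 32.1-fold above the tumour Tnc cluster (21.6 to 49.9) and 2.05-fold below the normal Abca8a cluster (1.83 to 2.31). The tumour Thbs4 and normal Sema3c clusters could not be separated by counting error, nor could the tumour Hp and normal Hp clusters. The Tnc cluster, whose top genes include Cthrc1 and Inhba, held 35.8% of the tumour fibroblast-like UMIs, because its median of 26403 UMIs per cell was the highest. Without it the Bmp4 log2 fold was -1.61 instead of -2.20, and the call stood. In other classes Bmp4 was at 35.9 CPM in tumour lymphatic endothelial-like cells and at 1.06 CPM in normal macrophage-like or monocyte-like cells, where 0.707% of cells had a UMI without thinning. An antisense gene that overlaps Bmp4, Gm15222, had 51 UMIs against the 2653 of Bmp4.

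Bmp2, the closest relative of Bmp4, was counted mainly in macrophage-like or monocyte-like cells of the normal library. It was at 342 CPM (332 to 353) in the 1414 normal macrophage-like or monocyte-like cells and at 26.8 CPM in normal fibroblast-like cells, 12.8-fold apart (11.5 to 14.2). Among the normal clusters of that class the level was 566 CPM (542 to 590) in the Marco cluster, whose top genes also hold Timd4 and Cd5l of long-lived resident macrophages, and 363 CPM (347 to 380) in the Cd209f cluster, whose top genes hold Mrc1 and Folr2. It was 43.3 CPM (36.2 to 51.3) in the Lyz1 cluster, with Ccr2 and MHC class II genes. After thinning, 60.4%, 46.1% and 10.2% of the cells of these 3 clusters had a Bmp2 UMI. No single cell made up the level, since the 5 cells richest in Bmp2 held 10.9% of the UMIs of the Marco cluster.

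Across libraries, the 53 tumour macrophage-like or monocyte-like cells had 31.96 CPM of Bmp2 (17 UMIs in 5 cells), against 342 CPM in the normal class, 10.7-fold lower (6.68 to 18.4). In that comparison 14.7% of 6381 genes were at least 2-fold lower and 12.0% were higher. The clusters behind the 2 values differ, because 49 of the 53 tumour cells were in the Lyz1 cluster, and the Marco cluster held 0 tumour cells. Within the Lyz1 cluster Bmp2 was at 26.9 CPM (14.3 to 45.9) in 49 tumour cells and at 43.3 CPM in 372 normal cells, and the interval of the ratio included 1 (0.322 to 1.10). The tumour value rests on 13 UMIs in 3 cells, 10 of them in 1 cell. Id1 was at 24.8 CPM (12.8 to 43.3) in the tumour Lyz1 cells, against 5.57 CPM (3.25 to 8.92) in the normal ones, from 12 and 17 UMIs.

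**Figure D2:**
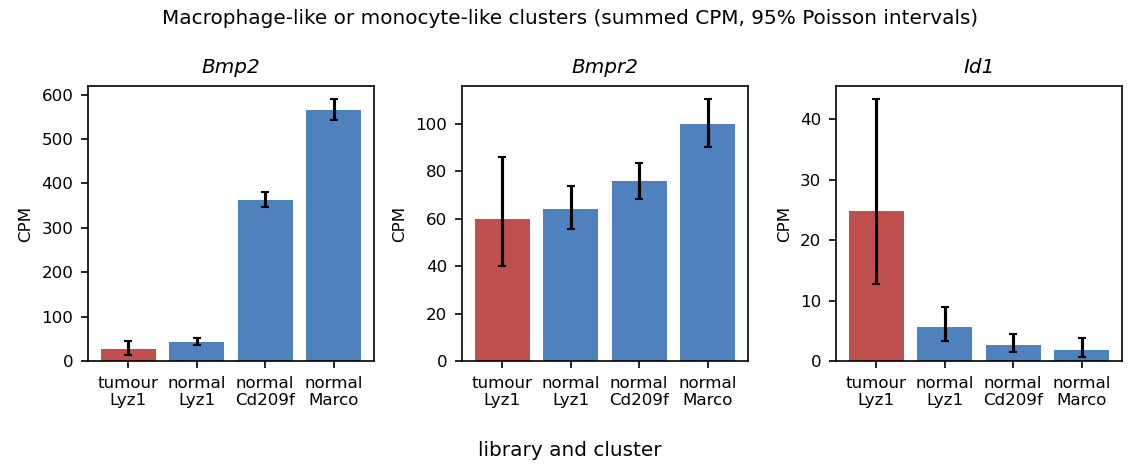
Bars give the summed CPM of Bmp2, Bmpr2 and Id1 in the tumour Lyz1 cluster (red) and in the normal Lyz1, Cd209f and Marco clusters (blue), with 95% Poisson intervals. Bmp2 climbs to 566 CPM in the normal Marco cluster, Bmpr2 stays between 59.9 and 99.9 CPM, and Id1 is highest in the 49 tumour cells, with a wide interval.

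In fibroblast-like cells Bmp2 was at 19.1 CPM (17.5 to 20.7) in the tumour, against 26.8 CPM (24.1 to 29.6) in the normal library, a log2 fold of -0.49. In the tumour it lay at 27.6 CPM in the Hp, 21.4 CPM in the Thbs4, 16.9 CPM in the Apod and 12.8 CPM in the Tnc cluster. In the normal library it was 49.8 CPM (43.8 to 56.5) in the Sema3c cluster and 15.5 CPM in the Abca8a cluster, the reverse of the Bmp4 order, and 0 UMIs were counted in the 39 cells of the Hp cluster. The top genes of the Sema3c cluster include Dpp4 and Pi16, known from adventitial fibroblasts. The 8 macrophage markers summed to 12.0 CPM in tumour and 86.6 CPM in normal fibroblast-like cells, with 1 and 0 of them at 0, and their part in the Bmp2 difference was not tested. Normal endothelial-like cells had 2.23 CPM of Bmp2. In normal pericyte-like or smooth muscle-like cells Bmp2 was at 64.2 CPM (49.2 to 82.3), and in the 42 tumour epithelial-like cells at 66.6 CPM (51.9 to 84.1). These 2 classes could not be separated. The top 5 epithelial-like cells held 55.7% of the 70 Bmp2 UMIs of their class, and the top 5 tumour Tnc cells held 56.1% of 132. Poisson intervals understate the error of these levels.

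Bmp5 and Bmp6, ligands of another BMP subgroup, were scarce. Bmp5 reached 56.9 CPM (42.9 to 74.1) in the 147 normal pericyte-like or smooth muscle-like cells, where 20.8% of thinned cells had a UMI. In fibroblast-like cells it was at 0.941 CPM (27 UMIs) in the tumour and at 3.24 CPM (46 UMIs) in the normal library. All 46 of those normal UMIs were in the Abca8a cluster, which also led for Bmp4, at 5.27 CPM (3.86 to 7.04), and at a clustering resolution of 1 a cluster led by G0s2 held 44 of them. The 373 cells of the normal Sema3c cluster had 0 UMIs, which allows up to 0.610 CPM. Bmp6 had 61 UMIs in all cells of both libraries. Its highest level in a class with more than 1 UMI was 7.12 CPM (2.61 to 15.5) in the unnamed Sema3g cluster, and it was at 0.209 CPM (6 UMIs) in tumour and 2.04 CPM (29 UMIs) in normal fibroblast-like cells. The Bmp6 locus overlaps Txndc5 on the opposite strand, with 10264 UMIs against the 61 of Bmp6, and whether counting used strand is not given in the sources used here.

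Among the antagonists, Grem1 was the rarer in normal cells and the more unevenly spread in the tumour. Fibroblast-like cells had 317 Grem1 UMIs (11.0 CPM, 9.86 to 12.3) in the tumour, against 10 UMIs (0.704 CPM, 0.338 to 1.30) in the normal library. The CPM ratio was 15.7-fold (8.41 to 33.0), but neither sum reached 20 CPM, so it was not called. Those UMIs came from 39 of 2224 tumour cells and 3 of 1480 normal cells, shares of 1.75% and 0.203%, and after thinning the shares were 1.18% and 0.224%. In the tumour 86.1% of the UMIs were in the Tnc cluster, at 26.6 CPM (23.5 to 29.9), against 1.14 to 4.85 CPM in the Apod, Thbs4 and Hp clusters. All 29 UMIs of the Hp cluster came from 1 cell.

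Within the Tnc cluster 33 of 385 cells had a Grem1 UMI. Of these 16 had exactly 1, the richest had 64, and the top 5 cells held 75.1% of the UMIs, so a Poisson interval understates the error of this level. The 33 cells had a median of 26217 UMIs, against 26460.5 UMIs in the other 352. Ductal or tumour epithelial markers summed to 16.3 CPM in the 33 cells and 4.78 CPM in the 352, and acinar markers to 68.8 and 29.6 CPM. Grem1 was not confined to fibroblast-like cells, since 11 of the 42 tumour epithelial-like cells had it, at 96.1 CPM (78.3 to 117), and 1 of them held 68 of its 101 UMIs. Without the 5 richest cells of each library the fibroblast-like log2 fold was 4.06 (3.97 with them), and the normal count was then at 0, so that value is a lower bound. Without the Tnc cluster it was 1.76, against the normal cells of female mice 2.51, and against those of male mice 6.43. The values by sex split 10 UMIs of 3 normal cells, so they cannot show a sex difference.

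**Figure D3:**
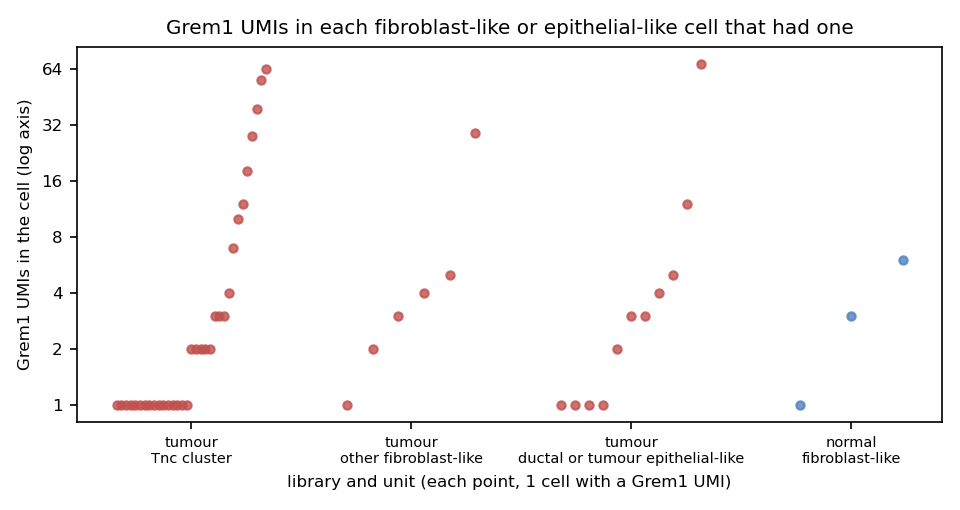
Each point is 1 cell with a Grem1 UMI, at its Grem1 UMI count (log axis), in the tumour Tnc cluster, the other tumour fibroblast-like clusters, the tumour epithelial-like cells and the normal fibroblast-like cells. The richest cells have 64 UMIs in the Tnc cluster and 68 among epithelial-like cells, most others have few, and 3 normal fibroblast-like cells have any.

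Chrdl1, a chordin-like protein, was at 5.99 CPM (5.13 to 6.96) in tumour and 7.68 CPM (6.30 to 9.26) in normal fibroblast-like cells, and the interval of the ratio included 1. The sums hid a sharp division that both libraries shared. In the tumour 89.5% of the 172 UMIs were in the Hp cluster, at 25.8 CPM (21.8 to 30.2), against 0.916, 0.584 and 0.382 CPM in the Apod, Tnc and Thbs4 clusters. In the normal library 90.8% of the 109 UMIs were in the Sema3c cluster, at 20.1 CPM (16.4 to 24.5), against 0.115 CPM in the Abca8a cluster. The 39 normal cells of the Hp cluster had 17.3 CPM (7.90 to 32.8, 9 UMIs), not separable from the Sema3c cluster. The tumour Hp cluster was 28.1-fold above the tumour Apod cluster (10.8 to 105), and it was 1.28-fold above the normal Sema3c cluster, with an interval that included 1 (0.988 to 1.66). After thinning 8.19% of tumour Hp cells and 7.71% of normal Sema3c cells had a Chrdl1 UMI (13.8% and 15.5% without thinning). Outside fibroblast-like cells Chrdl1 had 0 UMIs in the tumour classes and in the normal library 7.56% of its UMIs were in 16 mesothelial-like cells and 1 UMI was in a macrophage-like or monocyte-like cell.

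Co-detection of ligand and antagonist transcripts in the same cell was counted. Among 1858 thinned tumour fibroblast-like cells, 358 had a UMI of any of the 4 ligands, 60 had a UMI of either antagonist, and 9 had both, where the product of the shares gives 11.6. Among 1337 normal cells the counts were 598, 43 and 13, where the product gives 19.2. Within clusters, cells with both numbered 0 in the tumour Tnc, 1 in the tumour Apod, 2 in the tumour Thbs4, 4 in the tumour Hp and 9 in the normal Sema3c cluster, where the products give 0.898, 0.780, 0.412, 4.30 and 7.77. In the normal Abca8a cluster 0 of 932 thinned cells had an antagonist, so no cell could have both. These counts describe sparse data.

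**Figure D4:**
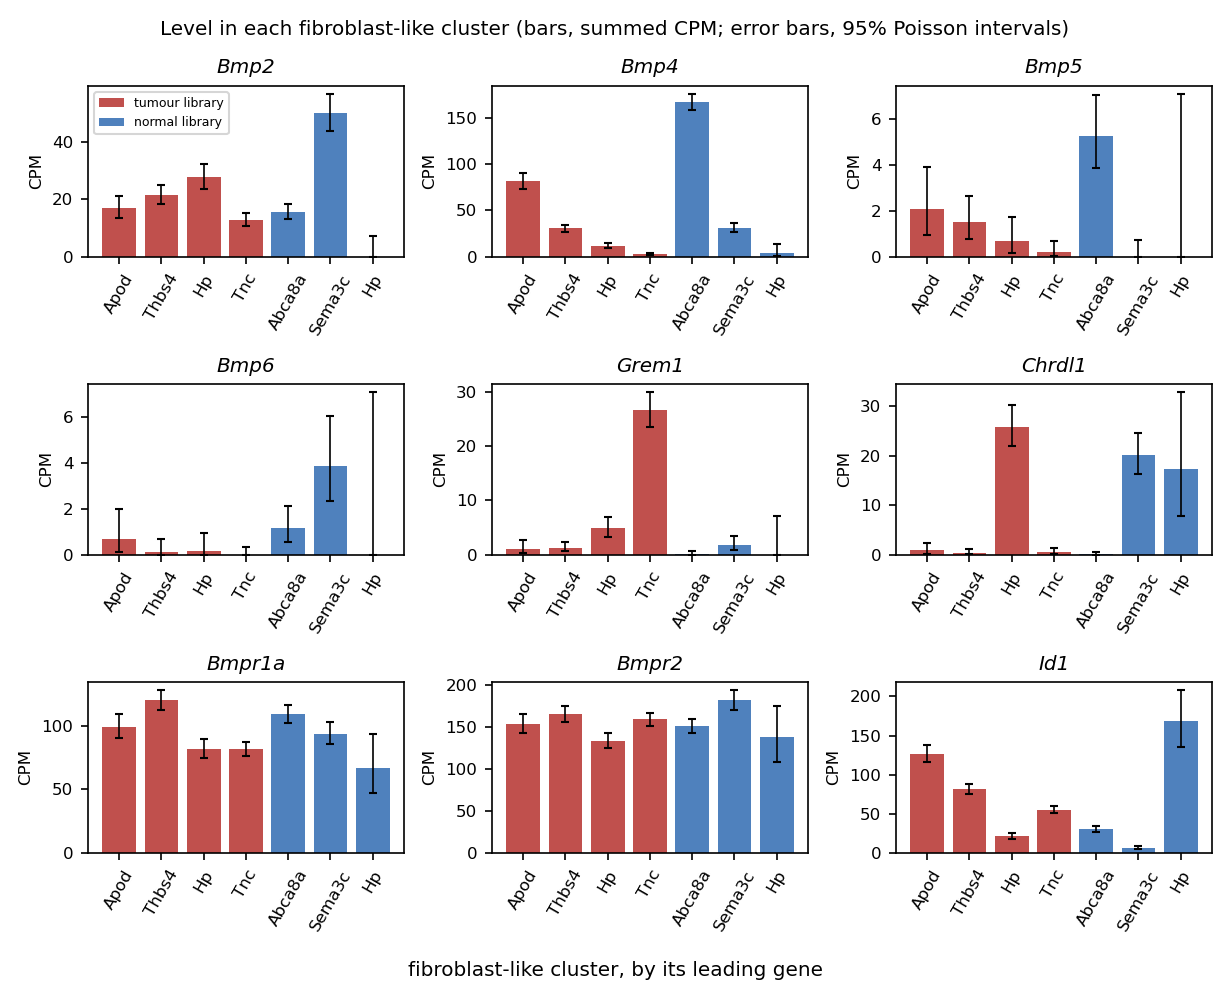
Bars give the summed CPM of each gene in the tumour clusters led by Apod, Thbs4, Hp and Tnc (red) and in the normal clusters led by Abca8a, Sema3c and Hp (blue), with 95% Poisson intervals; scales differ between panels. Bmp4 is highest in normal Abca8a and tumour Apod cells, Grem1 in tumour Tnc cells, and Chrdl1 in tumour Hp and normal Sema3c cells, whereas Bmpr1a and Bmpr2 differ little.

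The receptors varied least among fibroblast-like cells. Bmpr1a, the type I receptor also called ALK3, was at 95.3 CPM (91.8 to 99.0) in tumour and 102 CPM (97.2 to 108) in normal fibroblast-like cells. Its cluster levels ran from 81.5 CPM (Tnc) to 120.4 CPM (Thbs4) in the tumour and from 67.2 CPM (Hp) to 109 CPM (Abca8a) in the normal library. A UMI was found in 38.0% of thinned tumour cells and 40.2% of thinned normal cells (62.0% and 58.8% without thinning). Its log2 fold was -0.10, and 0.22 with TMM scaling, so no direction is given. Across classes Bmpr1a was high in mesenchymal cells, with 100.4 CPM in normal pericyte-like or smooth muscle-like cells but 0.608 CPM (3 UMIs) in 1071 normal endothelial-like cells.

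Bmpr2, the type II receptor, had another profile. It was at 154 CPM (150 to 159) in tumour and 161 CPM (154 to 168) in normal fibroblast-like cells, and the interval of the ratio included 1 (0.911 to 1.01). Cluster levels ran from 133 CPM (Hp) to 165 CPM (Thbs4) in the tumour and from 138 CPM (Hp) to 181 CPM (Sema3c) in the normal library. Its log2 fold was -0.06, and 0.26 with TMM scaling. The highest levels were 645 CPM (623 to 668) in normal endothelial-like cells and 698 CPM (642 to 756) in the unnamed Sema3g cluster, where Bmpr1a was at 2.37 CPM. Endothelial cells are known to use ALK1, the product of Acvrl1, as their type I BMP receptor.

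Id1, an inhibitor of bHLH transcription factors and a direct BMP-SMAD target, was at 66.0 CPM (63.0 to 69.0) in tumour fibroblast-like cells, against 27.3 CPM (24.6 to 30.1) in normal ones, 2.42-fold higher (2.17 to 2.71). After thinning 18.9% of tumour cells and 8.90% of normal cells had a UMI (27.5% and 13.6% without thinning). The tumour clusters had 127 CPM (Apod), 81.4 CPM (Thbs4), 55.2 CPM (Tnc) and 21.4 CPM (Hp). The normal clusters had 30.4 CPM (Abca8a), 6.30 CPM (Sema3c) and 169 CPM (Hp, 135 to 208). All neighbours in this order were separated by counting error alone. The top 5 cells held 30.5% of the 568 tumour Tnc UMIs, 34.4% of the 128 tumour Hp UMIs and 38.7% of the 31 normal Sema3c UMIs. Poisson intervals understate the error of these levels too, so close neighbours are less secure. The direction was not the same in every cluster, since in the Hp cluster, the only fibroblast-like one with at least 20 cells in both libraries, Id1 was at 21.4 CPM in 520 tumour cells and 169 CPM in 39 normal cells, 7.89-fold lower in the tumour (5.95 to 10.4). The 88 normal UMIs were in 15 of the 39 cells and the top 5 cells held 55.7% of them, so the Poisson interval understates the error of this level.

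Other gene sums were read beside Id1. For Id1 and for the sum of dissociation genes alike, the normal Hp, tumour Apod and tumour Thbs4 clusters were highest, though the full order differed. The 16 dissociation and immediate early genes summed to 25167 CPM in tumour and 15829 CPM in normal fibroblast-like cells. Of the 16, 5 were called higher and 0 lower, beside backgrounds of 7.66% and 11.3%, and the median log2 fold of the 16 was 0.48. By cluster the sum was 34258 CPM (tumour Apod), 29537 CPM (tumour Thbs4), 26448 CPM (tumour Hp), 17284 CPM (tumour Tnc), 12324 CPM (normal Abca8a), 20423 CPM (normal Sema3c) and 30294 CPM (normal Hp). The 5 adipocyte markers summed to 864 CPM in the 39 normal Hp cells, 1 of them at 0, and to 8.46 to 21.9 CPM in the other fibroblast-like clusters of both libraries. The part of these genes in the Id1 differences was not tested. Without those 39 cells the Id1 log2 fold was 1.59 instead of 1.27. It was 0.91 with doublets kept and 0.48 when the pericyte-like or smooth muscle-like class was counted in, and the call was lost in both. That class held 1 tumour cell and 147 normal cells, so counting it in changed almost only the normal sum. Id1 was far higher in some other classes, at 1103 CPM in the unnamed Sema3g cluster, 922 CPM (895 to 949) in normal endothelial-like and 345 CPM in normal pericyte-like or smooth muscle-like cells. The 8 endothelial markers summed to 42.1 CPM in tumour and 157 CPM in normal fibroblast-like cells, none at 0, and their part in the Id1 difference was not tested.

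Among the fibroblast-like clusters of the tumour, Bmp4 and Id1 were both highest in the Apod and next in the Thbs4 cluster. The Hp and Tnc clusters had opposite orders, with Bmp4 at 11.7 and 2.53 CPM and Id1 at 21.4 and 55.2 CPM. Among those of the normal library Bmp4 was highest in the Abca8a and Id1 in the Hp cluster. Among the thinned cells of the tumour Apod cluster, 140 of 413 had a Bmp4 UMI, 119 had an Id1 UMI and 45 had both, where the product of the shares gives 40.3. In the normal Abca8a cluster the counts were 475, 96 and 54 of 932 cells, where the product gives 48.9.

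The rest of the pathway was read from a list of 56 genes that contains the 9. Between the fibroblast-like sums, 30 of the 56 reached 20 CPM, 6 were higher in the tumour and 6 lower, beside the backgrounds of 7.66% and 11.3%, and the median log2 fold was -0.03. All 3 Id genes that reached 20 CPM and 2 known feedback inhibitors, Bambi and Smad7, were among the 6 higher, with Fstl3. The 6 lower were the ligands Bmp4 and Bmp7 and the receptors or co-receptors Acvrl1, Acvr2a, Rgma and Rgmb. With TMM scaling 11 were higher and 3 lower, and Bmp4, Acvrl1 and Rgma were the 3. Over all genes 803 of 6682 were then higher and 371 lower.

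Split by role, each part of the list had few measured genes, so its counts say nothing particular about that role. The backgrounds are again 7.66% higher and 11.3% lower. The ligands had 4 measured members, 0 higher and 2 lower, and a median log2 fold of -1.34. Bmp7 was at 1.88 CPM in tumour and 20.4 CPM in normal fibroblast-like cells, 10.9-fold lower (8.10 to 14.8). It was at 0.254 to 7.02 CPM over the tumour clusters and at 56.3 CPM in the normal Sema3c cluster. Its normal sum lay near the 20 CPM minimum. The call was lost with either other scaling, with every cell weighted the same, with pericyte-like cells counted in, against normal cells of female mice alone and without the richest cells. Gdf10 was at 166 CPM in the tumour and 189 CPM in the normal sum, with 402 CPM in the tumour Apod and 18.5 CPM in the tumour Tnc cluster. The antagonists had 7 measured members, 1 higher and 0 lower, and a median of 0.68. Fstl3, which binds activins and some BMPs, was 4.59-fold higher (3.97 to 5.32), at 66.6 CPM in tumour and 14.5 CPM in normal cells. Fst, follistatin, had a log2 fold of 0.95, and -0.08 without the Tnc cluster, where it was at 332 CPM. The lowest were Crim1 and Twsg1, with log2 folds of -0.56 and -0.18.

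The receptors and co-receptors had 9 measured members, 1 higher and 4 lower (backgrounds 7.66% and 11.3%), and a median of -0.92. Bambi, a decoy receptor without a kinase, was 2.82-fold higher (2.44 to 3.27), and Acvr1, a type I receptor, had a log2 fold of 0.84. Rgma, a repulsive guidance molecule that acts as a BMP co-receptor, was 2.83-fold lower (2.58 to 3.11), at 27.4 CPM in tumour and 77.7 CPM in normal cells. Acvrl1 was 2.53-fold lower (2.37 to 2.70), Rgmb 2.09-fold lower (1.88 to 2.31) and Acvr2a 2.08-fold lower (1.86 to 2.32), and neither Rgmb nor Acvr2a was called with either other scaling or without the Tnc cluster. Acvrl1 was at 33.8 to 86.7 CPM over the 4 tumour clusters and at 182, 111 and 53.8 CPM in the normal Abca8a, Sema3c and Hp clusters.

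The SMAD and SMURF genes had 6 measured members, 1 higher and 0 lower, and a median of 0.03. Smad7, an inhibitory SMAD that both TGF-beta and BMP signals induce, was 5.89-fold higher (5.50 to 6.32), at 361 CPM in tumour and 61.4 CPM in normal cells. Its 4 tumour clusters lay between 299 and 410 CPM and its 3 normal clusters between 51.8 and 65.5 CPM. Smad1 had a log2 fold of 0.34, and Smad5 and the ubiquitin ligase Smurf2 had -0.13 and -0.54. The target genes had 4 measured members, 3 higher and 0 lower (backgrounds 7.66% and 11.3%), and a median of 1.49. With 4 genes measured, these counts say little about target genes as a group. Id2 was 4.56-fold higher (4.19 to 4.97), at 194 CPM in tumour and 42.6 CPM in normal cells, and Id3 3.27-fold higher (3.17 to 3.37), at 1150.2 CPM in tumour and 352 CPM in normal cells. Id3 shared the high level of Id1 in the 39 normal Hp cells, at 1686 CPM. Msx1 had a log2 fold of 0.86.

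**Figure D5:**
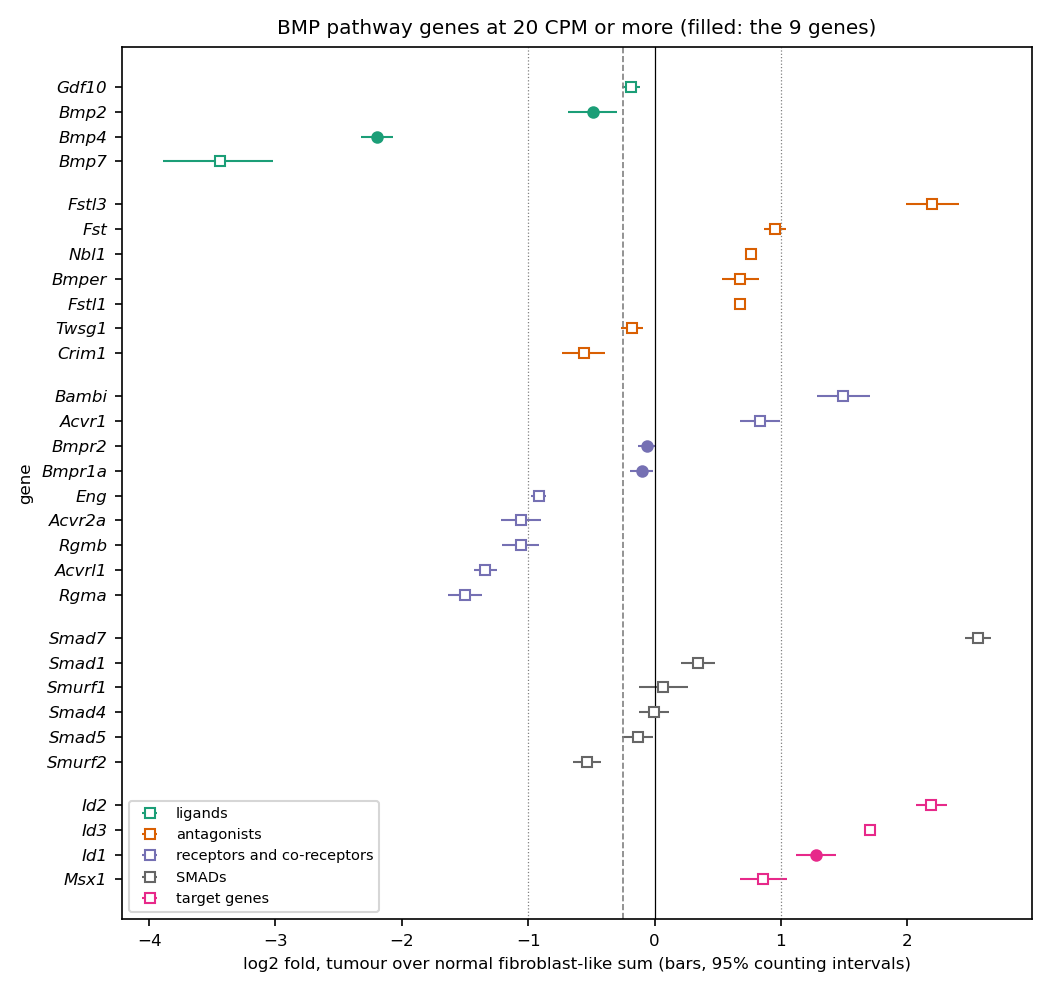
Log2 folds of tumour over normal fibroblast-like sums (x axis) for the 30 pathway genes that reached 20 CPM (y axis), grouped by role, with 95% counting intervals; filled symbols are members, dotted lines mark 2-fold and the dashed line the median of all genes. The target genes and Smad7 lie to the right, Bmp4 and Bmp7 to the left, and Bmpr1a and Bmpr2 near 0.

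The genes whose levels were most like those of each member were ranked over 14 units with at least 50 cells, by Pearson's r of log2(CPM + 1) among 9987 genes, as a description. Units of 1 library share its depth and background RNA, and the 42 epithelial-like cells were not among them. Bmp2 was most like Cdc14b, Psd3 and Pomk (r = 0.95, 0.94 and 0.93). Bmp4 was most like Akap12, Cyth3 and Pds5b (r = 0.95, 0.94 and 0.94), and Bmp5 like Ctnna3, Tusc5 and Adra1a (r = 0.97, 0.96 and 0.96). Bmp6, low everywhere, was most like March2, Ppp2r5e and Inpp1 (r = 0.94, 0.93 and 0.91). Grem1 was most like 1500015O10Rik, P4ha3 and Calca (r = 0.94 each), and Chrdl1 like Myoc, Sema3e and Sdk1 (r = 0.96, 0.93 and 0.90). Bmpr1a was most like Smim1, Fxyd1 and the mesenchymal transcription factor Prrx1 (r = 0.98, 0.98 and 0.97). Bmpr2 was most like Wwc2, Dock1 and Tmem184b (r = 0.99, 0.98 and 0.98), and Id1 like Tm4sf1, Itga1 and Dab2ip (r = 0.94, 0.93 and 0.93). Among the members themselves, the pair with the highest r was Bmpr2 and Id1 (0.81), and Bmp4 and Grem1 had an r of 0.07.

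Since clusters were built from all genes, the 56 pathway genes were also left out and the cells clustered again. Bmp4 was then at 82.0 CPM in the tumour Apod and 2.59 CPM in the tumour Tnc cluster. In the Abca8a cluster, which then held 27 tumour cells, it was at 147 CPM (96.8 to 214, 27 UMIs) in these and 166 CPM (158 to 175) in 1065 normal cells, so no Bmp4 difference was detectable within that cluster. Grem1 was at 27.1 CPM in the tumour Tnc cluster, and Chrdl1 was at 17.9 CPM in a tumour cluster led by Ptx3 and 19.9 CPM in the normal Sema3c cluster.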

How the data were processed

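Both libraries were deposited by the authors as raw UMI counts per gene and cell barcode, made with Cell Ranger 3.1.0 on mm10, per the submitters' processing notes. Every step below started from those deposited counts. Barcodes passed with no fewer than 500 genes and 1000 UMIs and no more than 10% mitochondrial UMIs (2573 of 2942 tumour and 4616 of 5437 normal barcodes, from libraries of 33285044 and 36675424 UMIs). Scrublet marked 2.08% of the normal cells by its own threshold and 0.117% of the tumour cells, so in the tumour the highest-scoring 2.06%, its expected rate, were removed (53 tumour and 96 normal cells in all). Cells were scaled to 10000, log-transformed and clustered jointly with scanpy 1.11.5 (2000 variable genes, 30 components, 15 neighbours, Leiden resolution 0.5), without batch correction. A cluster was named where at least 3 markers of a class were each detected in at least 25% of its cells. It stayed unnamed where its 10 leading genes held more markers of another class, or where its UMIs were low and held none of its own.

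UMIs were summed per class or cluster and library. Ratios have exact conditional 95% intervals, shares exact Clopper-Pearson ones, and a sum at 0 was set to 3 counts for a bound. Fold calls were tried on simulated Poisson counts. These follow the model of the intervals and hold no spread between cells or mice, so they cannot show how calls behave under it. No p-value was computed, since each group had 1 library. The named genes were all 9 members, the pathway genes called or at either end of each sub-list, and the 3 genes most like each member. The members and lists were chosen with earlier results of these data known. Alternatives were other scalings, cell filters, clusterings, cell sets and CPM minimums, and 3 cell sets were chosen after seeing the data. TMM factors came from edgeR 4.0.16 in R 4.3.3. Sequences came from RefSeq (GRCm38.p6) and positions from GENCODE on GRCm38.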

Additional observations from a re-analysis of the deposited data

How the results depend on the processing

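Of the 9 genes, Bmp4 was called lower in the tumour under each of the 18 alternatives tried, with log2 folds from -2.25 (without the normal cells of the Hp cluster) to -1.61 (without the Cthrc1-rich Tnc cluster). With doublets kept, and with the pericyte-like or smooth muscle-like class counted in, 0 members were called higher instead of 1. With a minimum of 5 CPM there were 2, Grem1 and Id1. Of the pathway list, 11 genes were higher with TMM scaling and 10 with a minimum of 5 CPM, against 6, and 3 were lower with TMM or median-ratio scaling, also against 6. The background moved as well. Over all genes 803 of 6682 were higher with TMM scaling and 837 of 10570 with a minimum of 5 CPM, against 522 of 6811. Lower were 371 of 6682 with TMM and 500 of 6717 with median-ratio scaling, against 768 of 6811. Over 37 genes and 16 alternatives, 432 log2 folds stayed within the main counting interval and 160 did not, and no called fold changed sign. Among members, Chrdl1, Bmpr1a and Bmpr2, which were not called, changed sign under 1, 3 and 2 of the 16. The alternatives that left out the normal Hp cells, the richest cells or the shared barcodes were chosen after seeing the data. For 15 of 18 shares of cells the unthinned value lay outside the counting interval of the thinned one. No paired analysis was possible because each group had 1 library. Depth limits Bmp5, Bmp6 and Grem1, whose normal fibroblast-like sums rest on 46, 29 and 10 UMIs.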

Other observations

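Lymphatic endothelial-like cells, which PDPN also marks, were the second largest class of the tumour library. Their Id1 level was 277 CPM (245 to 312) in 103 tumour cells, against 32.8 CPM in 23 normal cells, where it rests on 3 UMIs. The 72 tumour cells with at least 2 lymphatic markers had 348 CPM of Id1, 158 CPM of Bmpr2 and 0 UMIs of Bmpr1a, whereas the other 31 had 118 CPM of Id1, 88.8 CPM of Bmpr2 and 75.7 CPM of Bmpr1a. At a clustering resolution of 1, a cluster of 31 tumour cells with the same median and the same UMI counts of all 9 genes was named fibroblast-like.

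Of the tumour fibroblast-like cells 2113 had Xist and no Y-linked UMI and 0 had Y-linked UMIs alone, against 486 and 764 of the normal ones. In normal cells with Xist alone and with Y-linked UMIs alone, Bmp4 was at 111 and 103 CPM, Id1 at 25.5 and 27.5 CPM, Bmp2 at 24.6 and 29.5 CPM, Chrdl1 at 7.99 and 8.84 CPM and Grem1 at 1.94 and 0.128 CPM. The Grem1 values split 10 UMIs of 3 normal cells, so no sex difference can be read from them.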
